A study of Danio rerio with 2 samples.

Results

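Cells carrying transcripts of tfec (ENSDARG00000098745) were picked out of zebrafish embryos sampled at 24 hours post fertilisation. The cells were chosen by their own tfec and tfap2b counts: a cell was taken when it held at least 1 unique molecular identifier (UMI, a tag that marks 1 captured RNA molecule) of tfec and none of tfap2b (ENSDARG00000012667). That gave 101 of 1347 cells, of which 15 were among 348 cells of the ErbBi library and 86 among 999 cells of the untreated library. The embryos were of the AB strain, wild type per the labels. The cells were sorted on a green reporter driven by mitfa sequence and a red reporter driven by crestin sequence, which both groups carried. The treated embryos had received ErbBi, a label taken to mean a blocker of ErbB receptors, and the others were untreated. Dose and length of the treatment are not given in the sources used here. The name of each cell ends in a number that was read as its library through the sample titles, and every direction between treatments would turn if that reading were wrong. There is 1 library for each treatment, prepared with a 10x Genomics kit that reads the 3′ ends of transcripts, so the libraries can be described side by side but not tested.

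tfec encodes a transcription factor of the MiT family, to which mitfa also belongs. In zebrafish it is required for iridophores, the silvery pigment cells that hold purine crystals, and its transcripts are also found earlier, in neural crest cells that have not yet chosen a fate. Iridophore precursors go on to switch on pnp4a, which encodes a purine nucleoside phosphorylase, ltk, which encodes a receptor tyrosine kinase needed for the lineage, and alx4a, a homeobox gene. tfap2b encodes an AP-2 transcription factor, and cells holding both transcripts are left out by the rule.

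The ErbBi library held 1113172 UMIs with a median of 2732.5 per cell, and the untreated library 7242348 with a median of 7099. A cell read more deeply is more likely to show a rare transcript, and the chosen cells were deeper than the rest. Their median was 3635 UMIs in the ErbBi library, against 2719 in cells without tfec, and 7852 in the untreated library, against 6983. Each chosen cell was therefore paired with the cell without tfec of the same library that was nearest in total UMIs, within 10%. This left 14 pairs in the ErbBi library, with medians of 3629 UMIs in tfec-carrying and 3642 in matched cells, and 86 pairs in the untreated library, with medians of 7852 and 7849.5. Values are given as CPM, a gene's UMIs per 1000000 UMIs, summed over the cells of a group, and every interval is a 95% interval that covers counting error only. Cells of 1 library are not replicates, so no p-value is given. Barcodes found in both libraries numbered 6, and 1 of them belonged to a tfec-carrying cell.

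tfec was scarce. It had 17 UMIs in the ErbBi library, or 15.3 CPM (8.90 to 24.5), and 122 UMIs in the untreated library, or 16.8 CPM (14 to 20.1). The level over all cells was thus nearly the same in both libraries, and the intervals overlapped widely. Most of the chosen cells lay just inside the rule. In the ErbBi library 14 of 15 had a single tfec UMI and 1 had 2, and in the untreated library 74 of 86 had a single one, 12 had 2 or more, and the highest held 3. The uncorrected shares of tfec-carrying cells were 4.31% (2.43 to 7.01) in the ErbBi library and 8.61% (6.94 to 10.5) in the untreated library. After every cell was thinned to 1900 UMIs, leaving out 68 ErbBi and 53 untreated cells that were shallower, the shares were 2.5% (7 of 280, 1.01 to 5.08) and 3.28% (31 of 946, 2.24 to 4.62). At equal depth a difference between the libraries was not detectable.

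The cells set aside for holding tfap2b as well were 1 of 16 tfec-positive cells in the ErbBi library and 18 of 104 in the untreated library. In the untreated library tfap2b was thus found in 17.3% of cells with tfec (10.6 to 26.0), against 9.72% of cells without it (7.86 to 11.9). Of those 18 cells, 6 lay in cluster 10, 4 in cluster 6, 3 in cluster 9 and 2 in cluster 8, and they held 23 of the 122 untreated tfec UMIs. These shares are not corrected for depth, and the 18 cells had a median of 8307 UMIs.

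Clustering of all cells with tfec and tfap2b left out gave 11 clusters. From its markers cluster 2 was mesenchyme-like (twist1a, DLX2, PRRX1), cluster 3 melanophore-like (both TYRP1 genes, dct, pmela) and cluster 5 xanthophore-like (gch2, slc22a7a). The others stayed unnamed. Cluster 8 was led by the reporter transcript EGFP and by HOXD9 (ENSDARG00000059274) and HOXA11 (ENSDARG00000007009), homeobox genes used along the trunk and tail. Cluster 10 was led by both PAX7 genes, PAX3 (ENSDARG00000010192) and id3. In the untreated library tfec stood highest in these 2 clusters, which are singled out here after their values were seen. Cluster 8 had 53.7 CPM (32.8 to 82.9; 20 UMIs) and cluster 10 had 47.1 CPM (29.9 to 70.7; 23 UMIs). The other untreated clusters of more than 2 cells ran from 6.48 CPM in the mesenchyme-like cluster (2.11 to 15.1) to 19.8 CPM in the xanthophore-like one (10.8 to 33.2). Their neighbouring values do not differ beyond their intervals. The intervals of untreated clusters 5 (to 33.2), 7 (to 37.7) and 9 (to 34.2) overlap those of clusters 8 and 10.

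Put together, clusters 8 and 10 held 112 of the 999 untreated cells (11.2%), 43 of the 122 tfec UMIs (35.2%) and 22 of the 86 tfec-carrying cells (25.6%). Their tfec level was 50.0 CPM (36.2 to 67.3), against 12.4 CPM (9.80 to 15.4) in the other clusters, a gap that the choice of the 2 highest clusters fixes. Tfec-carrying cells made up 19.4% of cluster 8 (12 of 62, 10.4 to 31.4) and 20% of cluster 10 (10 of 50, 10.0 to 33.7). The share in the mesenchyme-like cluster, a cell type in which pigment genes should be low and which serves here as the background, was 6.02% (5 of 83, 1.98 to 13.5). The melanophore-like cluster, with 6.41% (10 of 156), cluster 1 with 5.69% (12 of 211), cluster 6 with 4.67% (5 of 107) and cluster 7 with 6.90% (4 of 58) were at about that level. By these shares a single tfec UMI in those clusters cannot be told apart from background. These shares leave out tfec cells that held tfap2b, so the rule itself lowers some of them. It set aside 4 such cells in cluster 6, 6 in cluster 10 and 0 in the mesenchyme-like cluster. The levels count all tfec UMIs. By level cluster 6 stood at 10.8 CPM (9 UMIs, 4.95 to 20.5) and cluster 7 at 18.3 CPM (7 UMIs, 7.35 to 37.7). The mesenchyme-like cluster stood at 6.48 CPM (2.11 to 15.1), with intervals that overlap. Of the 4 tfec-carrying cells of cluster 7, 2 held 2 or more tfec UMIs. Cluster 5 with 11.1% (13 of 117), cluster 9 with 10.9% (6 of 55) and cluster 4 with 9.18% (9 of 98) lay in between. Their intervals overlap those of the mesenchyme-like cluster and of clusters 8 and 10. Cells of clusters 8, 10 and 2 differed in depth, with medians of 5968.5, 9254.5 and 9622 UMIs. Thinned to 1900 UMIs, the shares were 12.1% in cluster 8 (7 of 58, 4.99 to 23.3), 8.0% in cluster 10 (4 of 50, 2.22 to 19.2) and 3.85% in cluster 2 (3 of 78, 0.800 to 10.8), with intervals that overlap. Clusters 5, 4 and 9 were then at 2.70% (3 of 111), 3.13% (3 of 96) and 3.92% (2 of 51). At equal depth these 3 clusters were thus at about the level of cluster 2 and no longer in between.

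In the ErbBi library the tfec-carrying cells were spread otherwise. There 7 of 15 (46.7%) lay in the mesenchyme-like cluster, which made up 36.5% of that library, and 3 of 15 in clusters 8 and 10. The tfec level in those 2 clusters was 23.2 CPM (3 UMIs, 4.78 to 67.7), against 14.2 CPM (14 UMIs, 7.78 to 23.9) elsewhere, with intervals that overlap. In the mesenchyme-like cluster, taken above as the background, tfec-carrying cells made up 5.51% of ErbBi cells (7 of 127, 2.24 to 11), against 4.31% of the library, and tfec stood at 17.4 CPM (7.50 to 34.2). Set against that cluster, ErbBi tfec-carrying cells thus cannot be told apart from background, which holds for every ErbBi comparison given here. That the mesenchyme-like cluster has no tfec of its own was not tested, and it is a large part of the library it is set against. Its untreated tfec level was 6.48 CPM (2.11 to 15.1), with an interval that overlaps the ErbBi one. Cluster 11 came from the ErbBi library almost alone, with 53 ErbBi and 2 untreated cells, and 2 ErbBi cells in it carried tfec.

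**Figure D1:**
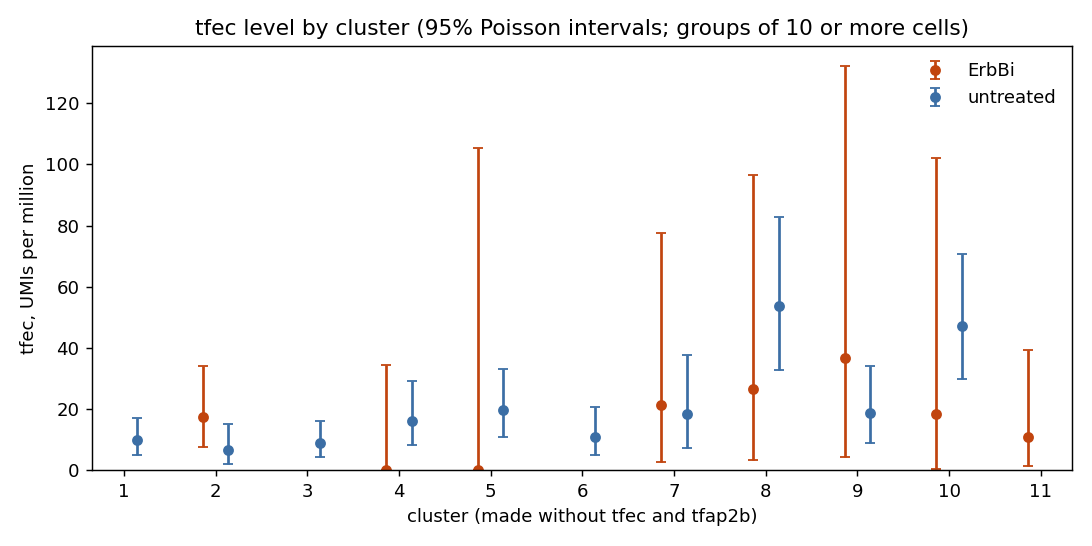
tfec in CPM (vertical axis) in each cluster (horizontal axis), for ErbBi cells on the left of each pair and untreated cells on the right, with 95% Poisson intervals and groups of under 10 cells not drawn. Untreated clusters 8 and 10 stand at 53.7 and 47.1 CPM, above every other untreated cluster, but their intervals overlap those of clusters 5, 7 and 9. The ErbBi intervals are too wide to order.

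The following shares describe the same tfec counts that chose the cells and the 2 clusters, and support nothing further. Of the 12 untreated cells with 2 or more, 8 lay in clusters 8 and 10 (66.7%, 34.9 to 90.1), with 5 in cluster 8 and 3 in cluster 10. The other 4 were 2 cells of cluster 7 and 1 each of clusters 5 and 9. Among cells with a single tfec UMI the share in clusters 8 and 10 was 18.9% (14 of 74, 10.7 to 29.7), among matched cells without tfec 11.6% (10 of 86, 5.72 to 20.3), and among all cells without tfec 9.16% (82 of 895, 7.35 to 11.2). The median total was 7511 UMIs in cells with 2 or more tfec UMIs, 7925 in cells with 1 and 7849.5 in matched cells, and the part of depth in these shares was not tested. In the ErbBi library 3 of 14 cells with a single tfec UMI lay in these clusters, against 2 of 14 matched cells, and the lone cell with 2 tfec UMIs was in cluster 2.

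**Figure D2:**
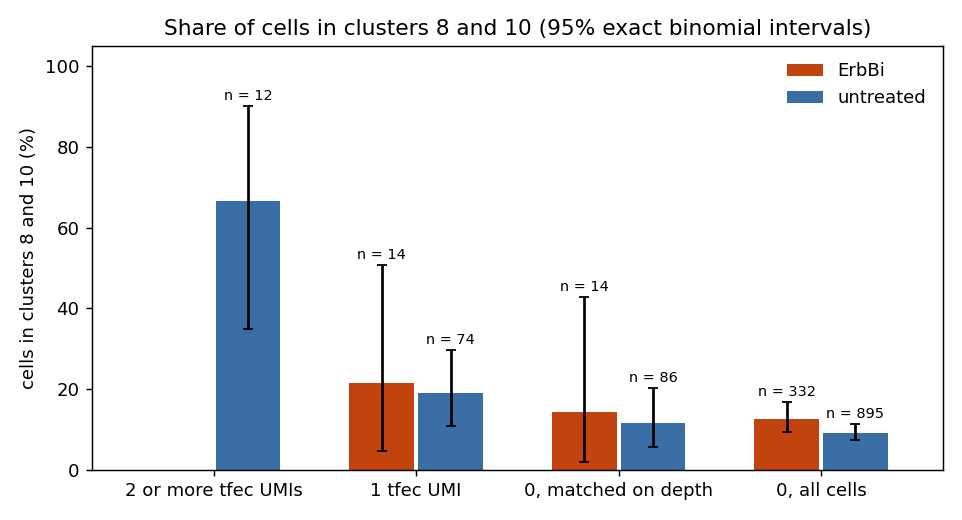
Share of cells that lie in clusters 8 and 10 (vertical axis, percent) for cells with 2 or more tfec UMIs, with 1, with none and matched on depth, and all cells with none, ErbBi on the left and untreated on the right, with 95% exact binomial intervals. The untreated share is 66.7% in cells with 2 or more tfec UMIs and 18.9%, 11.6% and 9.16% in the others; the 1 ErbBi cell with 2 tfec UMIs is not drawn.

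The iridophore markers were not raised together in the tfec-carrying cells. In the untreated pairs pnp4a had 493 UMIs in tfec-carrying and 689 in matched cells, or 696 and 974 CPM, a ratio of 0.71 (0.64 to 0.80), and of 0.94 (0.83 to 1.07) within clusters. It was found in 72 of 86 tfec-carrying and 76 of 86 matched cells, with a median of 3 UMIs per cell (0 to 28) and 5 UMIs per cell (0 to 46), so the 2 groups overlapped. Across untreated clusters pnp4a did not follow tfec. It stood at 1569 CPM in the melanophore-like cluster and 1530 CPM in cluster 1, and at 153 CPM in cluster 8 and 406 CPM in cluster 10. ltk was near 0 everywhere, with 2 UMIs in tfec-carrying and 2 in matched untreated cells, 14 UMIs in 14 of 999 untreated cells, and none in the ErbBi pairs.

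ALX4 (ENSDARG00000088332), one of the alx4 genes, was higher. It had 55 UMIs in 16 tfec-carrying cells against 30 UMIs in 4 matched cells, a ratio of 1.83 (1.15 to 2.96). Its level was highest in cluster 9, at 314 CPM, and when pairs were drawn within the same cluster the ratio was 0.79 (0.53 to 1.16). gpnmb, which encodes a melanosomal and lysosomal glycoprotein and also marks iridophores, had 26 against 9 UMIs, but 1 cell held 76.9% of the 26. apoda.1, an apolipoprotein D gene, had 86 against 49 UMIs, with 54.7% of the 86 in 1 cell, and its ratio was 0.49 (0.36 to 0.66) with pairs drawn within the same cluster. For lists a minimum of 10 UMIs was used, at which 12.6% of 7368 genes in the untreated pairs were past 1.5-fold higher and 14.2% lower. Of 11 iridophore list genes in the files, 6 reached 10 UMIs in the untreated pairs, with 3 past 1.5-fold higher, 1 past 1.5-fold lower, and a median log2 ratio of 0.37. The UMIs of the list summed to 758 in tfec-carrying and 884 in matched cells, a ratio of 0.86 (0.78 to 0.94) that has the other sign because pnp4a outweighs the rest. alkal2b, which encodes a ligand of ltk, and akap12a were at 0 in the tfec-carrying cells.

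Genes of purine synthesis, which iridophores and xanthophores both draw on, lay mostly a little above a ratio of 1. Of 13 measured, 10 lay above a ratio of 1 and 1 was past 1.5-fold higher, against 12.6% of all genes. That gene was gart, with 42 against 27 UMIs (1.55, 0.94 to 2.62). paics, which encodes an enzyme of the later steps, had 671 against 524 UMIs, a ratio of 1.28 (1.14 to 1.44), and IMPDH1 (ENSDARG00000029524), which leads towards guanine nucleotides, had 681 against 535, a ratio of 1.27 (1.13 to 1.43). Summed over the list the ratio was 1.22 (1.15 to 1.3). With pairs drawn within clusters the list's median log2 ratio was -0.05, against 0.21 otherwise. Over all genes with at least 30 UMIs in the untreated pairs the median was -0.0021.

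Over all genes, the 1 to 1 pairs gave about as many higher as lower genes, a balance that depends on the matching. In the untreated pairs 4259 genes had at least 30 UMIs in both groups together, and 282 of them were past 1.5-fold higher (6.62%) and 269 past 1.5-fold lower (6.32%), with a median log2 ratio of -0.0021. With 5 matched cells each the counts were 498 higher and 779 lower of 7091 genes, and against all cells without tfec 716 and 1252 of 8692. Most of these genes had few UMIs: of 1816 genes with at least 100 UMIs, 28 were past 1.5-fold higher and 28 lower. In the ErbBi pairs 553 genes were measured, 61 higher (11%) and 52 lower (9.4%), with a median log2 ratio of -0.05. Of the 552 genes measured in both libraries, 3 were past 1.5-fold higher in the untreated pairs and 2 past 1.5-fold lower. Of these 5, 0 lay on the same side of 1 in the ErbBi pairs. The share of all 552 genes on the same side is not given here, so these 5 are too few to read as a disagreement. The lowest ratios in the untreated pairs were those of haemoglobin genes, because a single matched cell held 99.3% of the 4814 UMIs of the erythroid list. The erythroid list had 44 UMIs in the tfec-carrying cells.

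**Figure D3:**
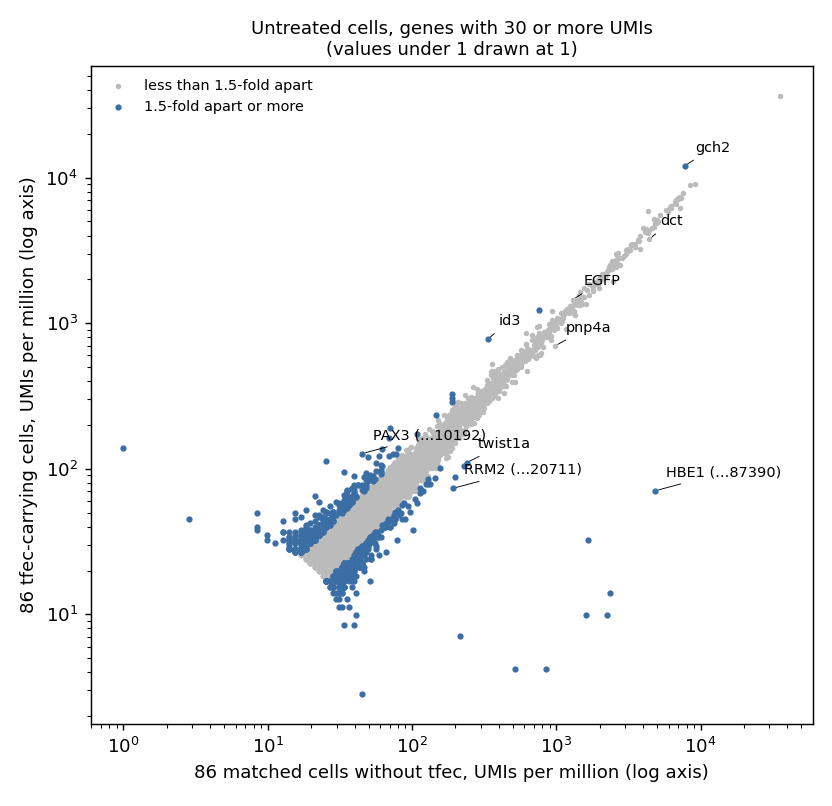
Each point is a gene with at least 30 UMIs, placed by its CPM in the 86 untreated tfec-carrying cells (vertical log axis) and in the 86 matched cells without tfec (horizontal log axis), and coloured where the levels are 1.5-fold apart or more. Most genes lie on the diagonal, id3 (776 against 335) and PAX3 (127 against 45.2) lie above it, and the haemoglobin genes at the lower right, HBE1 among them, come from 1 matched cell. The point at the left edge is tfec itself, which chose the cells.

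Several genes of the neural crest and pigment lists were past 1.5-fold higher in the untreated pairs with intervals above 1. Among them were id3, one PAX7 gene, the ALX4 gene given above and gch2, which is given below. PAX3, a leading gene of cluster 10, was past 1.5-fold higher as well. id3, which encodes an inhibitor of basic helix-loop-helix factors, had 550 UMIs in tfec-carrying and 237 in matched cells, or 776 and 335 CPM, a ratio of 2.32 (1.99 to 2.71). It was found in 63 and 57 of the 86 cells, with medians of 2 UMIs (0 to 45) and 1 UMI (0 to 32), so the groups overlap and the gap comes from more UMIs per positive cell. PAX3 (ENSDARG00000010192), a paired-box factor of the dorsal neural tube and neural crest, had 90 against 32 UMIs, a ratio of 2.81 (1.86 to 4.35), and was found in 36 against 18 cells. PAX7 (ENSDARG00000070818), whose genes act in xanthophore development, had 78 against 40 UMIs, a ratio of 1.95 (1.31 to 2.93). The other PAX7 gene (ENSDARG00000100398) had 185 against 138, a ratio of 1.34 (1.07 to 1.68). PAX3, PAX7 and id3 also lead cluster 10, so these ratios and the excess of cluster 10 cells among the members are not separate results.

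Of the general neural crest genes, sox10 and crestin lay close to a ratio of 1, while foxd3 and tfap2a leaned lower. sox10, which encodes the factor that all crest-derived pigment cells need, had 249 UMIs in tfec-carrying and 246 in matched untreated cells, a ratio of 1.01 (0.84 to 1.21). crestin, a transcript of neural crest cells, had 226 against 225, and foxd3, a gene of early crest, had 91 against 119 (0.76, 0.57 to 1.01). tfap2a, an AP-2 gene of early crest, had 173 against 221 (0.78, 0.64 to 0.96). Over the neural crest list 2 of 13 measured genes were past 1.5-fold higher and none lower, against 12.6% and 14.2% of all genes. These were id3 and ZIC2 (ENSDARG00000037178), the latter with 16 against 9 UMIs, and the higher share is near the background. MITF (ENSDARG00000003732), the melanophore master regulator, had 450 against 423 UMIs, a ratio of 1.06 (0.93 to 1.22). It was the 1 measured gene of the MiT list, and tfe3b was at 0. EGFP, the reporter the cells were sorted on, was found in 65 tfec-carrying and 50 matched cells, with a ratio of 1.12 (1.02 to 1.22). That ratio has no stable direction: it was 1.59 (1.48 to 1.71) with 5 matched cells each, 0.98 (0.90 to 1.07) with Scrublet's doublet calls left out and 0.87 (0.80 to 0.95) within clusters. tfap2e, a further AP-2 gene, had 258 against 260 UMIs. Of 12 genes of the pigment progenitor list, none was past 1.5-fold higher and 2 were lower, against 12.6% and 14.2% of all genes. The lower ones were phlda3 with 6 against 21 UMIs (0.29, 0.09 to 0.73) and EDNRB (ENSDARG00000089334) with 6 against 11. phlda3 is also among the leading genes of the mesenchyme-like cluster, which held 5 of the tfec-carrying and 9 of the matched cells.

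Detection in the same cell was compared at equal depth. Both groups were defined anew on the thinned counts. The cells without tfec here therefore include cells whose tfec UMIs were lost in thinning, since only 895 untreated cells lacked tfec before it. The tfec-carrying cells here could likewise include cells that held tfap2b before thinning. In untreated cells thinned to 1900 UMIs, MITF was found in 67.7% of 31 tfec-carrying cells (48.6 to 83.3) and 60.9% of 913 cells without tfec (57.7 to 64.1). sox10 was found in 41.9% (24.5 to 60.9) and 49.7% (46.4 to 53.0), and pnp4a in 58.1% (39.1 to 75.5) and 61.4% (58.2 to 64.6). id3 was found in 51.6% (33.1 to 69.8) and 34.6% (31.5 to 37.8). PAX3 was found in 22.6% (9.59 to 41.1) and 8.11% (6.42 to 10.1). PAX7 (ENSDARG00000070818), higher in the untreated pairs, was found in 6.45% (0.791 to 21.4) and 9.53% (7.70 to 11.6). ALX4 (ENSDARG00000088332) was found in 12.9% (3.63 to 29.8) and 3.94% (2.78 to 5.42). For each of these genes the intervals of both groups overlap. In the untreated mesenchyme-like cluster PAX3 was found in 3.85% and pnp4a in 19.2% of 78 cells. id3 was found in 39.7% of them, but that cluster is no background for id3, with 288 CPM against 127 CPM in the melanophore-like cluster. MITF was found in 24.4% and sox10 in 16.7% of cells of that cluster. gch2 and dct were found in 92.3% and 80.8% of those cells, so a UMI of either does not mark a pigment cell here.

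The melanophore list leaned slightly lower in the untreated tfec-carrying cells, and none of its 14 measured genes passed 1.5-fold in either direction. dct, which encodes dopachrome tautomerase of melanin synthesis, had 2661 UMIs against 3106 in matched cells, a ratio of 0.86 (0.81 to 0.90). pmela, the melanosome matrix protein gene, had 1385 against 1745 (0.79, 0.74 to 0.85), and tyr, which encodes tyrosinase, had 99 against 133 (0.74, 0.57 to 0.97). The median log2 ratio of the list was -0.20. Cells that gave over 1% of their UMIs to melanin genes (dct, pmela and both of TYRP1) made up 27.9% of tfec-carrying cells (24 of 86, 18.8 to 38.6) and 41.9% of matched cells (36 of 86, 31.3 to 53.0). With pairs drawn within clusters the ratio of dct was 1.2 (1.13 to 1.27).

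Xanthophore genes leaned the other way. gch2, which encodes the first enzyme of pteridine synthesis, had 8512 UMIs in tfec-carrying and 5477 in matched untreated cells, a ratio of 1.55 (1.5 to 1.61). The medians per cell were nearly equal, at 20.5 UMIs (3 to 636) in tfec-carrying and 20 UMIs (3 to 893) in matched cells. The gap came from gch2-rich cells: those with over 2% of their UMIs in gch2 were 16 of 86 tfec-carrying (18.6%, 11 to 28.4) and 9 of 86 matched cells (10.5%, 4.90 to 18.9). aox5, an aldehyde oxidase gene of xanthophores, had 205 against 148 UMIs (1.38, 1.11 to 1.72). Of 14 measured xanthophore genes 13 lay above a ratio of 1, and 3 were past 1.5-fold higher, against 12.6% of all genes. The 3 were gch2, PAX7 (ENSDARG00000070818) and SPR (ENSDARG00000058553), the last with 7 against 4 UMIs. Within clusters the ratio of gch2 was 1.21 (1.17 to 1.24). The list's median log2 ratio was 0.10 within clusters and 0.36 otherwise. Over all genes with at least 30 UMIs in the untreated pairs the median was -0.0021.

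Mesenchyme genes leaned lower. twist1a, which encodes a factor of ectomesenchyme, had 78 UMIs in untreated tfec-carrying cells and 169 in matched cells, a ratio of 0.46 (0.35 to 0.61). DLX2 (ENSDARG00000079964), a homeobox gene of the pharyngeal arches, had 36 against 69 (0.52, 0.34 to 0.79), and 35 against 34 with pairs drawn within clusters (1.03, 0.62 to 1.70). Of 10 measured genes of this list 4 were past 1.5-fold lower and 1 higher, against 14.2% and 12.6% of all genes, and the summed ratio was 0.51 (0.43 to 0.61). Cluster 2 held 5 of the 86 tfec-carrying and 9 of the 86 matched cells. Most marker lists of other cells that a sort could let through had sums near each other. Neuron genes summed to 268 UMIs in tfec-carrying and 236 in matched cells. Of 7 measured neuron genes, 2 were past 1.5-fold higher and 3 lower, against 12.6% and 14.2% of all genes. Neural tube genes summed to 495 and 461, epidermis genes to 257 and 241, and muscle genes to 40 and 38. Macrophage genes summed to 17 and 13, and retinal pigment epithelium genes to 85 and 79. Schwann cell precursor genes were lower, with 142 and 186 (0.76, 0.61 to 0.95). Endothelium genes were higher, with 23 and 6 (3.83, 1.52 to 11.5), but 60.9% of the 23 were in 1 cell. Lysosome and proton pump genes, targets of other MiT factors in mammals, had a median log2 ratio of 0.10. Of 30 measured, 3 were past 1.5-fold higher and none lower, against 12.6% and 14.2% of all genes.

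Hox genes were listed after the clusters had been seen, so their counts are a description. Of 7 measured genes of groups 9 to 13, 4 were past 1.5-fold higher and none lower, against 12.6% and 14.2% of all genes, with summed UMIs of 132 in tfec-carrying and 77 in matched cells (1.71, 1.28 to 2.30). Those of groups 5 to 8 summed to 154 and 97 (1.59, 1.22 to 2.07), and those of groups 1 to 4 to 141 and 177 (0.80, 0.63 to 1.00). HOXB9 (ENSDARG00000056023) had 26 against 16 UMIs and HOXD9 (ENSDARG00000059274) 26 against 18, and the interval of each included 1. Hox genes of groups 9 to 11 are among the leading genes of cluster 8, which held 12 of the 86 tfec-carrying and 5 of the 86 matched cells, and the part of this in the sums was not tested.

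The lowest ratios that lay on the same side in both libraries, among genes with at least 100 untreated UMIs and no cell holding over 25%, were those of both RRM2 genes, which encode the small subunit of ribonucleotide reductase. RRM2 (ENSDARG00000020711) had 7 against 16 UMIs in the ErbBi pairs (0.44, 0.15 to 1.12) and 52 against 136 in the untreated pairs (0.38, 0.27 to 0.53). RRM2 (ENSDARG00000078069) had 8 against 18 in the ErbBi pairs (0.44, 0.17 to 1.08) and 62 against 141 in the untreated pairs (0.44, 0.32 to 0.60). The ErbBi intervals include 1. The RRM2 genes are paralogues, so the authors' counting could have split reads between them. With 5 matched cells per untreated tfec-carrying cell their ratios were 0.55 (0.40 to 0.75) and 0.72 (0.54 to 0.95), and within clusters 0.56 (0.39 to 0.81) and 0.82 (0.57 to 1.17), so the second does not stay past 1.5-fold in either.

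Others that met these limits in the untreated pairs were rpa1, a single-strand DNA binding protein gene (0.53), the connexin gene gjc4b (0.59), pclaf, which encodes a partner of PCNA (0.61), kdelr2a, a receptor gene of the secretory pathway (0.64), and clns1a (0.66). In the cell cycle list 3 of 19 genes were past 1.5-fold lower and 1 higher, against 14.2% and 12.6% of all genes, so the lower share is near the background. The median log2 ratio was -0.19, and the summed ratio was 0.82 (0.76 to 0.88). pcna, the sliding clamp of replication, had 273 against 293 UMIs (0.93, 0.79 to 1.1), and mki67, a proliferation marker, had 88 against 71 (1.24, 0.90 to 1.72). On the higher side 2 genes met the limits, clic4, a chloride intracellular channel gene (75 against 43 UMIs; 1.74, 1.18 to 2.60), and cyb5a, which encodes cytochrome b5 (204 against 134; 1.52, 1.22 to 1.90).

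Without the condition on the ErbBi pairs, further genes stood out in the untreated pairs and are named here after their values were seen. rgs2, a regulator of G protein signalling, had 97 against 44 UMIs (2.20, 1.53 to 3.22). RDH8 (ENSDARG00000028048), a retinol dehydrogenase gene, had 86 against 42 (2.04, 1.40 to 3.03) and was found in 43 against 24 cells. AQP1 (ENSDARG00000023713), an aquaporin gene, had 85 against 35 (2.42, 1.62 to 3.71) but in fewer cells, 16 against 22. GJB6 (ENSDARG00000042707), a connexin gene, had 231 against 134 (1.72, 1.39 to 2.15). STC2 (ENSDARG00000056680), a stanniocalcin gene and a leading gene of the melanophore-like cluster, was lower, with 74 against 162 UMIs (0.46, 0.34 to 0.60).

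**Figure D4:**
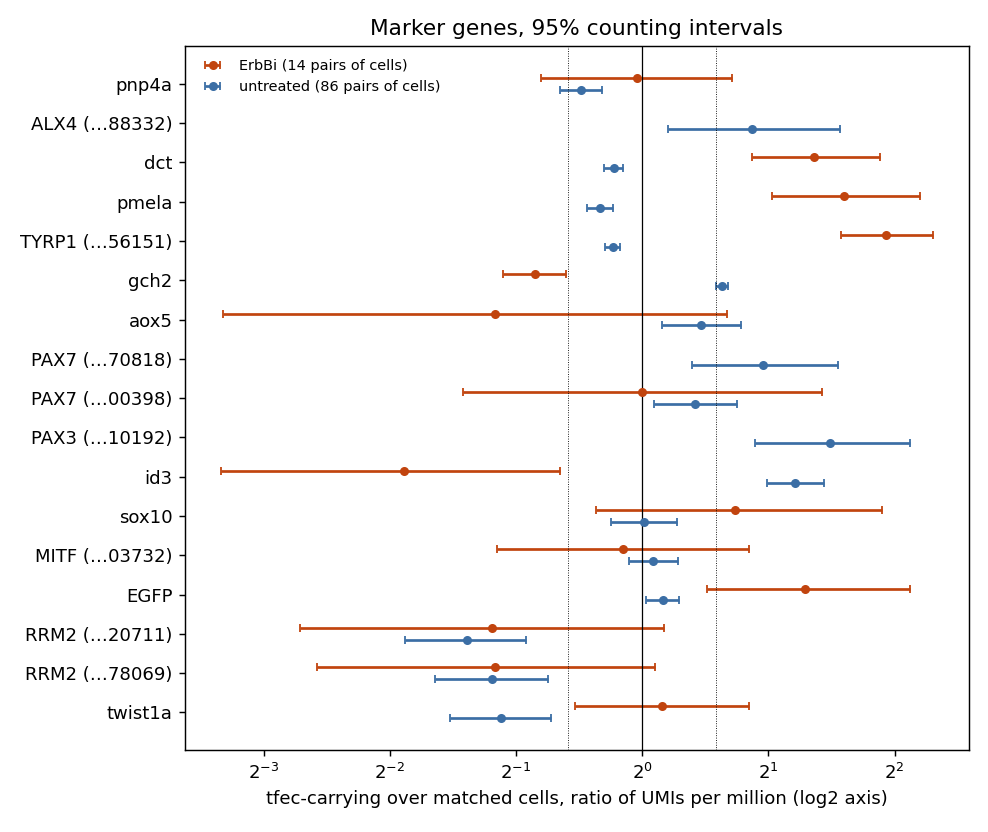
Ratio of CPM in tfec-carrying cells over matched cells (horizontal log2 axis, dotted lines at 1.5-fold) for marker genes, ErbBi above and untreated below in each row, with 95% counting intervals and genes under 10 UMIs in a library not drawn. In the untreated pairs PAX3 (2.81) and id3 (2.32) lie highest and RRM2 (0.38) lowest, pnp4a lies at 0.71, and the ErbBi intervals are several times wider.

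Pairs drawn within the same cluster hold the cluster make-up equal. Over 83 such untreated pairs, id3 had 522 UMIs against 361 (1.44, 1.26 to 1.65), PAX3 82 against 54 (1.51, 1.06 to 2.17) and AQP1 85 against 41 (2.07, 1.41 to 3.08). PAX7 (ENSDARG00000070818) had 77 against 68 (1.13, 0.80 to 1.59), so it was no longer past 1.5-fold. RRM2 (ENSDARG00000020711) had 48 against 85 (0.56, 0.39 to 0.81), RRM2 (ENSDARG00000078069) 59 against 72 (0.82, 0.57 to 1.17) and twist1a 76 against 146 (0.52, 0.39 to 0.69). The remaining difference of id3 lay in clusters 8 and 10. Across the 21 pairs there, id3 had 351 against 193 UMIs, or 2058 and 1159 CPM, a ratio of 1.78 (1.49 to 2.13), and was found in 20 cells of each group. RDH8 had 56 against 27 UMIs (2.02, 1.26 to 3.33) and PAX3 53 against 29 (1.78, 1.11 to 2.91). EGFP was lower there, with 717 against 879 (0.80, 0.72 to 0.88), and so were pnp4a, with 40 against 66 (0.59, 0.39 to 0.89), and MITF, with 75 against 113 (0.65, 0.48 to 0.88).

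Across the 62 pairs of the other clusters id3 had 171 against 168 UMIs (1.02, 0.82 to 1.27), PAX3 29 against 25 (1.16, 0.66 to 2.07) and RDH8 26 against 25 (1.04, 0.58 to 1.88). pnp4a had 441 against 444 there (1.00, 0.87 to 1.14). MITF had 342 against 261 (1.32, 1.12 to 1.55) and foxd3 62 against 93 (0.67, 0.48 to 0.93). The lower RRM2 (ENSDARG00000020711) level was found there, with 42 against 78 UMIs (0.54, 0.36 to 0.80), while clusters 8 and 10 held 6 against 7.

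Cells with 2 or more tfec UMIs had the highest id3 and PAX3 and the lowest melanophore gene levels of the 3 classes. In untreated cells id3 stood at 1321 CPM (1121 to 1546) with 2 or more tfec UMIs, 668 CPM (604 to 738) with 1, and 335 CPM (294 to 381) in matched cells with none. PAX3 stood at 298 CPM (208 to 415), 93.1 CPM (70.1 to 121) and 45.2 CPM (30.9 to 63.9). Both are thus ordered by tfec UMIs with intervals that do not overlap. The classes are cut on the tfec counts that chose the cells, and 66.7%, 18.9% and 11.6% of them lay in clusters 8 and 10. PAX3 and id3 are among the leading genes of cluster 10, so this order and the cluster make-up are not separate results. EGFP, the transcript of the mitfa reporter, was at 2855 CPM in cells with 2 or more, 1171 CPM with 1 and 1297 CPM with none, and crestin at 648, 254 and 318 CPM. Among the matched cells 1 held 362 of the 917 EGFP UMIs. sox10 stood at 324, 357 and 348 CPM. In the opposite direction pnp4a stood at 332, 768 and 974 CPM, dct at 1048, 4295 and 4392 CPM, and pmela at 571, 2231 and 2467 CPM.

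Against 12 cells matched to them, the 12 cells with 2 or more tfec UMIs had 155 against 53 UMIs of id3 (2.90, 2.11 to 4.03), 335 against 57 of EGFP (5.82, 4.38 to 7.85) and 17 against 5 of ALX4 (ENSDARG00000088332) (3.37, 1.19 to 11.7). They had 123 against 643 of dct (0.19, 0.15 to 0.23) and 39 against 123 of pnp4a (0.31, 0.21 to 0.45). These pairs were not drawn within clusters, and 8 of the 12 cells with 2 or more tfec UMIs lay in clusters 8 and 10. The part of cluster make-up in these ratios was not tested. id3 was present in 11 of the 12, with 0 to 45 UMIs per cell, and PAX3 in 11 of the 12, with 0 to 8. All 12 held dct, but with 1 to 27 UMIs each. The highest gch2 count, 630 UMIs, was in the cell of the xanthophore-like cluster, and the next was 155 in a cell of cluster 10, which also held 45 UMIs of id3, 8 of PAX3 and 20 of dct. ALX4 was present in 5 of the 12 cells, with 6 UMIs at most, in a cell of cluster 9.

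**Figure D5:**
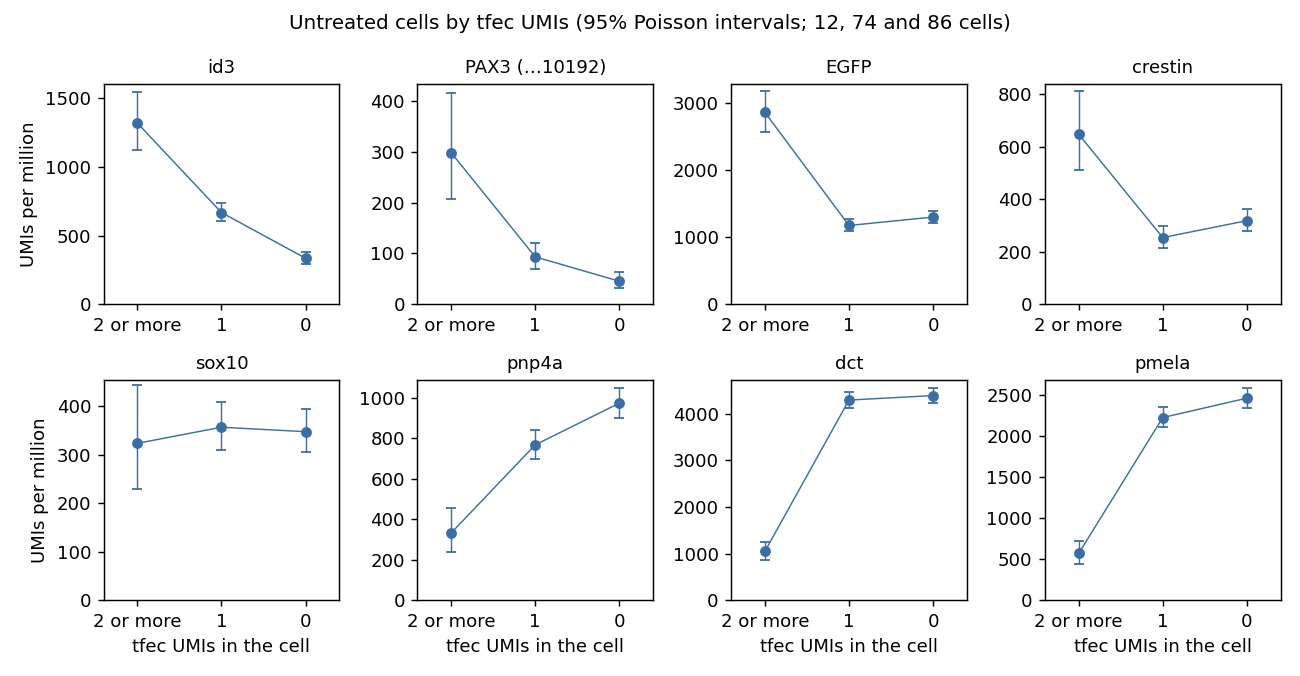
CPM (vertical axes, each from 0) of 8 genes in untreated cells with 2 or more tfec UMIs, with 1, and in matched cells with none, with 95% Poisson intervals. id3 (1321, 668, 335) and PAX3 (298, 93.1, 45.2) fall along the axis, sox10 lies at 324, 357 and 348, and dct (1048, 4295, 4392), pmela and pnp4a run the other way.

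In the ErbBi library the 14 pairs gave other directions for several of these genes, from few cells. id3 had 7 UMIs in tfec-carrying and 26 in matched ErbBi cells, a ratio of 0.27 (0.10 to 0.64), and PAX3 had 1 against 5. dct had 121 against 47 (2.58, 1.83 to 3.69) and pmela 103 against 34 (3.03, 2.04 to 4.61), with 40.5% and 45.6% of the tfec-carrying cells' UMIs in 1 cell. Of 1709 genes with at least 10 UMIs in the ErbBi pairs, 23.8% were past 1.5-fold higher and 15.9% lower. The melanophore list had 6 of 9 measured genes past 1.5-fold higher and none lower, and a median log2 ratio of 1.37. With 5 matched cells per tfec-carrying cell the ratio of dct was 0.92, so this excess depends on which ErbBi cells were matched. gch2 had 208 against 375 UMIs (0.56, 0.47 to 0.66), and 1 matched cell held 62.1% of the 375. EGFP had 49 against 20 (2.45, 1.43 to 4.35). twist1a had 40 against 36 (1.11, 0.69 to 1.80), and pnp4a 31 against 32 (0.97, 0.57 to 1.64). In the lysosome and proton pump list 13 of 18 genes were past 1.5-fold higher, with 301 against 160 UMIs in all (1.88, 1.55 to 2.30) and 23.3% of the 301 in 1 cell. This list was not recomputed with 5 matched cells, so whether its excess also depends on which ErbBi cells were matched was not tested. The mesenchyme list had 3 of 4 higher, the iridophore list 1 of 3, and the purine list none of 9 higher and 4 lower.

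The tfec-carrying cells of the 2 libraries were set against each other directly, 15 ErbBi cells against 86 untreated cells. Of 2915 genes with at least 30 UMIs, 656 were past 1.5-fold higher (22.5%) and 679 past 1.5-fold lower (23.3%) in ErbBi. Among cells without tfec the same comparison gave 2386 higher (26.5%) and 1289 lower (14.3%) of 9008 genes. The libraries differ in treatment, depth and preparation at once, which cannot be told apart, and 7 of the 15 ErbBi members came from the mesenchyme-like cluster. twist1a was at 779 CPM in ErbBi and 110 CPM in untreated tfec-carrying cells, a ratio of 7.07 (4.88 to 10.2), against a ratio of 4.04 (3.70 to 4.41) in cells without tfec. With the same cluster weights in both libraries its log2 ratio among tfec-carrying cells was 0.79, against 2.82 without weights. These weights use only the 5 clusters with tfec-carrying cells of both libraries, and leave out the melanophore-like and xanthophore-like clusters among others.

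The other genes highest by the naming rule were zgc:158463 (5.61), rps11l, a ribosomal protein gene (3.78), bcl2l16 of the BCL2 family (3.71) and SYNGR1 (ENSDARG00000002564), a synaptogyrin gene (2.65). In cells without tfec their ratios were 6.19, 3.97, 5.5 and 1.38, so the first 3 were as high or higher there. Among the lowest were si:dkey-251i10.2 with 1 ErbBi and 196 untreated UMIs (0.05, 0.0014 to 0.31), the sugar transporter gene slc2a11b with 1 and 152 (0.07, 0.0018 to 0.39), tmem130 with 1 and 116 (0.09, 0.0023 to 0.52) and ABHD10 (ENSDARG00000058394), a hydrolase gene, with 1 and 100 (0.11, 0.0027 to 0.60). In cells without tfec their ratios lay between 0.46 and 0.75. si:dkey-251i10.2 and tmem130 are among the leading genes of the xanthophore-like cluster, which held 13 of the 86 untreated and none of the 15 ErbBi tfec-carrying cells.

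id3 is given for tfec-carrying cells and for the rest. It had 10 UMIs in the 15 ErbBi cells and 550 in the 86 untreated cells, or 150 and 777 CPM, a ratio of 0.19 (0.09 to 0.36), while in cells without tfec it stood at 357 and 338 CPM, a ratio of 1.06 (0.95 to 1.18). The difference between these ratios was not tested, since there is 1 library for each treatment. Over all cells id3 stood at 1202 CPM in ErbBi and 1073 CPM in untreated cluster 8, 1081 and 1658 CPM in cluster 10, and 239 and 288 CPM in cluster 2. Clusters 8 and 10 held 3 of the 15 ErbBi and 22 of the 86 untreated tfec-carrying cells, and cluster 2 held 7 and 5. With the same cluster weights in both libraries, over the 5 clusters with tfec-carrying cells of both, the id3 ratio did not turn to the other side of 1. How much of its size goes with cluster make-up was not tested. gch2 had ratios of 0.28 (0.245 to 0.320) in tfec-carrying cells and 0.55 (0.53 to 0.57) in the rest. With the same cluster weights in both libraries its log2 ratio in tfec-carrying cells turned to 0.20. That weighting leaves out the xanthophore-like cluster with its 13 untreated tfec-carrying cells, since no ErbBi tfec-carrying cell lay there. dct (0.54 and 0.48), MITF (0.45 and 0.49) and pnp4a (0.69 and 0.67) had ratios close to each other in both.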

How the data were processed

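The authors deposited UMI counts per gene and cell of both libraries in 1 table of 1519 cells and a filtered table of 1347 cells, made with Cell Ranger 2.1.1 on GRCz11 per the submitters' processing notes. Every kept cell had at least 701 genes, every cell left out had at most 699, and 6713 gene rows were dropped. No value differed between the tables. Of 18723 gene rows 17970 had a symbol, and where several rows share a human-style symbol the gene ID is given.

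From these counts, tfec-carrying cells were paired 1 to 1 on total UMIs within 10%, UMIs were summed, and ratios were given exact conditional binomial intervals, levels exact Poisson intervals and shares Clopper-Pearson intervals, all at 95%. A gene counts as higher or lower past 1.5-fold with at least 30 UMIs in both groups together (10 for genes of a list). Cells were thinned to 1900 UMIs where shares are compared. Clusters came from Leiden clustering at resolution 1 in scanpy 1.11.5 on 2000 variable genes and 20 components, without tfec and tfap2b. Scrublet called 2 ErbBi and 7 untreated doublets, 0 of them tfec-carrying, and none were removed. The ratio code was checked on simulated sums and the pairing on a small made-up case. Thinning, clustering and doublet calls were not checked this way. The simulated sums had no spread between cells, so that check covers counting error only.

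Genes named are those of the pigment, neural crest and purine lists with at least 10 UMIs and the 3 leading genes of each cluster. Also named are the 5 highest and 5 lowest between treatments, tfec, tfap2b and both reporters. Up to 12 each way were added that were past 1.5-fold in the untreated pairs with at least 100 UMIs and an interval beyond 1. In the ErbBi pairs these needed only 10 UMIs and a ratio on the same side of 1, whatever its interval. Other named genes, and the hox, mesenchyme and cell cycle genes, were chosen after their values were seen. The cells and lists were chosen with earlier results of these data known. Some genes that met these rules are not reported here. With 1 library per treatment no test was run.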

Additional observations from a re-analysis of the deposited data

Results flagged for a closer look

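Only named genes of the pigment, neural crest and purine lists, the genes ranked by ratio and the reporters were screened here, not all genes. For 8 of them the ratio of tfec-carrying over matched cells lay beyond 1 on opposite sides in the ErbBi and the untreated library, each with an interval that excluded 1. The share of all genes that would meet this rule is not given here, so the 8 cannot be set against a background. The difference between the libraries was not tested, since each treatment has 1 library, and the ErbBi ratios rest on 14 pairs. Given as the ErbBi log2 ratio minus the untreated one, the difference was 1.59 for dct, 1.94 for pmela, 2.20 for TYRP1 (ENSDARG00000029204), 2.17 for TYRP1 (ENSDARG00000056151) and 2.37 for slc45a2, a transporter gene of melanosomes. It was -1.48 for gch2, -3.10 for id3 and -1.67 for IMPDH1 (ENSDARG00000029524).

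In the ErbBi pairs 1 tfec-carrying cell held 36.7% of the UMIs of the melanophore list and 1 matched cell held 62.1% of those of gch2. Without these cells the ErbBi ratio was 1.98 for dct, 1.42 for gch2 and 0.30 for id3. Cells with over 1% of their UMIs in melanin genes were 0 of the 14 matched ErbBi cells and 2 of the 15 tfec-carrying ones. Among all ErbBi cells without tfec they were 62 of 332 (18.7%). The ErbBi log2 ratio of dct turned to -0.12 with 5 matched cells each, and that of gch2 to 0.26 within clusters. For id3 the ErbBi ratio lay between 0.13 and 0.42 over the alternatives tried that gave one, against 2.32 in the untreated pairs.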

How the results depend on the processing

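No paired analysis was possible because the labels give 1 sample to each treatment. The cause of each change below was not tested.

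The share of tfec-carrying cells in the untreated library was 8.61% without thinning, 1.70% after thinning to 1000 UMIs, 1.66% in the unfiltered table thinned to 1000 UMIs, and 0.106% for 2 or more tfec UMIs in cells thinned to 1900 UMIs, where the ErbBi library gave 0.357%, each of them 1 cell. In untreated cluster 10 the share was 20% without thinning. Unthinned detection in untreated tfec-carrying cells was 87.2% for MITF and for sox10, 83.7% for pnp4a, 73.3% for id3 and 41.9% for PAX3 (ENSDARG00000010192).

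Counts of genes past 1.5-fold moved with the settings. In the ErbBi pairs the genes higher and lower were 725 and 820 with all cells without tfec, 1 and 14 for 2 or more tfec UMIs (1 pair), 406 and 271 at a minimum of 10 UMIs, 777 and 631 at 1 UMI in each group, 9 and 4 at 100 UMIs, 29 and 12 at 2-fold, and 171 and 239 with 5 matched cells each. In the untreated pairs they were 716 and 1252, 115 and 163, 926 and 1048, 1422 and 1575, 28 and 28, 58 and 74, and 498 and 779 under the same settings. The larger counts come with more genes tested.

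In untreated pairs the log2 ratio of pnp4a, -0.49 otherwise, was -0.31 against all cells without tfec, -0.089 within clusters, -1.67 for 2 or more tfec UMIs and -0.26 with 5 matched cells. That of ALX4 (ENSDARG00000088332) turned to -0.34 within clusters and was 1.75 for 2 or more tfec UMIs. The median log2 ratios of lists within clusters were -0.69 for iridophore, -0.052 for purine synthesis, 0.11 for melanophore, 0.10 for xanthophore and -0.20 for mesenchyme genes. Against all cells without tfec they were 0.67 for iridophore, 0.31 for purine synthesis, -0.35 for melanophore, 0.54 for xanthophore, -0.21 for pigment progenitor and -0.072 for cell cycle genes. With 5 matched cells they were 0.42 for purine synthesis, -0.31 for melanophore, 0.72 for xanthophore and -0.18 for pigment progenitor genes. At a minimum of 30 UMIs they were 0.81 for iridophore and -1.03 for mesenchyme genes. Log2 ratios of summed UMIs were -0.22 for iridophore, -0.24 for melanophore, 0.56 for xanthophore, 0.29 for neural crest and -0.96 for mesenchyme genes.

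Single genes also turned. In ErbBi pairs dct was at -0.21 against all cells without tfec and -0.12 with 5 matched cells. gch2 was at 0.26, EGFP at -0.29 and ENSDARG00000114516 at 0.58 within clusters, and gch2 at 0.51 and ENSDARG00000114516 at 0.041 without the pigment-rich cells. In untreated pairs apoda.1 was at -1.03 and DLX2 (ENSDARG00000079964) at 0.037 within clusters. For 2 or more tfec UMIs apoda.1 was at -0.45, twist1a at 0.57, rgs2 at -0.86, pgam1a at -0.71, ANXA2 (ENSDARG00000003216) at -2.18 and psat1 at -0.18. krt4 was at -1.01 against all cells without tfec and -1.59 with 5 matched cells. For ErbBi over untreated tfec-carrying cells, equal cluster weights were applied over the 5 clusters with tfec-carrying cells of both libraries, the others being left out. They gave 0.059 for gpr143, 0.20 for gch2, 0.21 for slc2a15b, 0.17 for paics, 0.89 for prdx1 (ENSDARG00000058734), 0.46 for ANXA2 (ENSDARG00000003216), -0.23 for pdgfra and -0.26 for ube2c.

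The alternatives with 5 matched cells, without the pigment-rich cells, without the haemoglobin-rich cell and with all tfec cells were added after seeing the data. With 17 tfec UMIs and 14 pairs, the ErbBi library gives wide intervals.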
